A study of Rattus norvegicus with 12 samples.

Results

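Akr1b8 and 8 genes of the NRF2 antioxidant system (Nfe2l2, Keap1, Nqo1, Txnrd1, Srxn1, Prdx1, Gsr and Sod2) were followed in rat nucleus pulposus (NP) cells, which populate the soft centre of the intervertebral disc. They were taken by gene symbol from the 12899 genes common to the deposited tables, and each of the 9 symbols matched 1 row. They were selected on normalised values of these same libraries, with results of the deposited comparisons in view. Their fold changes and adjusted p-values, from fits over all genes, are therefore a description and no independent test. The libraries were made from primary cells that grew out of Wistar rat disc tissue in serum. Cells carried a lentiviral shRNA against TonEBP and received TNF-a (shTon_TNF), carried that shRNA without TNF-a (shTon_CTR), carried the control vector and received TNF-a (PLKO_TNF), or carried the control vector alone (PLKO_CTR). TNF-a was given at 50 ng/mL for 24 h, and every group was transduced. Each group held 3 libraries, numbered as sets 1 to 3. What a set stands for (animals, cultures or days) is not in the labels. With the set as a term in the fit, p-values of group differences rest in part on how those differences vary from set to set. The fits (limma) also draw each gene's variance toward that of genes of like level. A gene's SE can therefore be smaller or larger than the spread of its own set ratios implies. The spread from set to set may be technical.

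NRF2, encoded by Nfe2l2, is a transcription factor that switches on genes for detoxifying and antioxidant enzymes. KEAP1 holds it in the cytoplasm and marks it for degradation until oxidants or electrophiles modify KEAP1, so NRF2 is controlled mainly at the protein level and not by the level of its own transcript. NRF2 binds antioxidant response elements in DNA together with small MAF proteins. TonEBP, encoded by Nfat5, is the factor that adapts cells to high osmolarity, which NP cells meet in the disc. TNF-a, a cytokine of inflamed discs, acts largely through NF-kB.

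Depth ran from 7160042 to 18645538 reads on the listed genes. Levels below are normalised reads on a scale common to the 12 libraries, and log2 fold changes come from limma with the set as a term. The authors' deposited fold changes, given beside them, match a DESeq2 fit whose prior shrinks fold changes. Their sizes are therefore not directly comparable with those of limma. Nfat5 checks the labels. It was lower in shTon_CTR than in PLKO_CTR in 3 of 3 sets (log2 fold change -1.61, limma adjusted p = 0.0963). The authors' deposited table lists -1.19 (adjusted p = 4.57e-05). With TNF-a the fold change was -0.26 (limma adjusted p = 0.799), and the authors' deposited table lists -0.03 (adjusted p = 0.987). Loss of Nfat5 with TNF-a is therefore not shown over the 3 sets. The set 1 library labelled shTon_TNF held 1695 normalised reads, against 642 in its PLKO_TNF partner. In sets 2 and 3 the log2 ratios were -1.12 and -1.06. Without set 1 limma gave -1.09 for Nfat5 with TNF-a (adjusted p = 0.00941). With 1 set left out in turn the estimates ran from -1.09 to 0.18. Knockdown below names the shRNA, and directions of knockdown with TNF-a rest on the libraries as labelled. The summed level of 10 skeletal muscle markers was 42389 to 98853 in set 1, 16408 to 30635 in set 2 and 172 to 249 in set 3, with Myog at 0 in set 3. Of 12 NP and notochord markers 5 could be read, and T, Acan, Col2a1, Sox9, Krt18, Krt19 and Car12 were not analysed here. The keratin gene Krt8, at 64.2 to 2278 normalised reads, averaged 140, 123 and 1784 in sets 1, 2 and 3. Cdh2 (322, 682 and 134), Cd24 (17.0, 31.9 and 5.18) and Foxf1 (120, 140 and 110) were lowest in set 3. Pax1 averaged 39.3, 91.6 and 43.6, so these markers did not share 1 order of the sets. Of 5 endothelial and 8 leukocyte markers 1 and 2 could be read. Tek, an endothelial receptor gene, was at 6.05 to 37.7 normalised reads, and the summed level of Cd14 and Cd68 was 186 to 678. In such bulk samples fewer cells of a type and less RNA per cell cannot be told apart.

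TNF-a raised the thioredoxin reductase gene Txnrd1 whether or not the cells carried the TonEBP shRNA, and knockdown lowered Akr1b8 in the presence of TNF-a. In PLKO cells 4 of the 9 genes rose with TNF-a (Akr1b8, Txnrd1, Srxn1 and Gsr) and 0 fell, where 4.97% of the 12373 genes tested rose and 9.62% changed in either direction at an adjusted p under 0.05. In shTon cells 1 rose (Txnrd1) and 0 fell, where 1.95% of 12339 genes rose. The 4 calls in PLKO cells were lost without the mean-variance trend (limma adjusted p = 0.0698 to 0.135) and without the set term (0.575 to 0.824). Under knockdown without TNF-a 0 of the 9 passed, where 0.113% of 12383 genes did. At an unadjusted p under 0.05 there were 2108 genes, Akr1b8, Nqo1 and Sod2 among them. EdgeR passed 0 of the 9 (0.166% of all genes) and DESeq2 passed 2, Akr1b8 and Nqo1 (3.03% of all genes). Under knockdown with TNF-a 1 of the 9 fell (Akr1b8) and 0 rose, where 0.139% of 12213 genes fell. The median log2 fold change of the 9 genes was 0.43 for TNF-a in PLKO cells, where that of all genes was -0.01. It was 0.21 for TNF-a in shTon cells, against -0.01 for all genes. For knockdown it was -0.14 without TNF-a and -0.56 with TNF-a, against 0.01 and 0.02 for all genes. By direction alone, 8 of the 9 were higher with TNF-a in 3 of 3 sets of PLKO cells, where 25.3% of all genes were, and 5 in shTon cells, where 19.9% were. Under knockdown 4 were lower in 3 of 3 sets without TNF-a, where 20.2% of all genes were, and 8 with TNF-a, where 19.8% were. Some of these directions rest on very small log2 ratios. For TNF-a in PLKO cells they were 0.007 for Sod2 in set 2, and 0.017 for Keap1 and 0.024 for Prdx1 in set 1. For knockdown they were -0.029 for Prdx1 without TNF-a and -0.011 for Nfe2l2 with TNF-a, both in set 2. The comparisons share libraries (PLKO_TNF serves TNF-a in PLKO cells and knockdown with TNF-a, for example), so these counts are not separate evidence. Beside these values, TNF-a in PLKO cells lowered 2 of 5 NP markers, 1 of 10 muscle markers and 2 of 4 fibroblast and annulus markers. Of all 12373 genes tested, 575 were lowered. The part of such cells in the results was not tested.

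**Figure D1:**
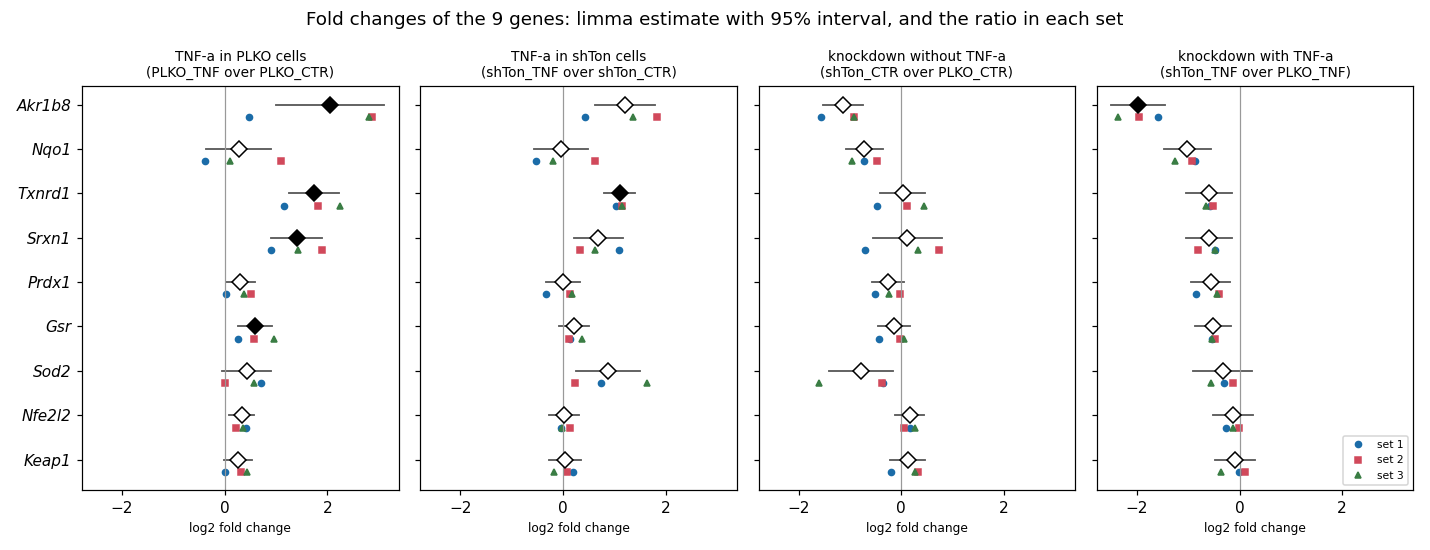
Log2 fold changes of the 9 genes in 4 comparisons. Diamonds are limma estimates with 95% intervals, filled where the adjusted p over all genes was under 0.05, and the small symbols under each are the log2 ratios in sets 1 to 3. Akr1b8 lies at 2.06 for TNF-a in PLKO cells and at -1.97 for knockdown with TNF-a, and Txnrd1 is the gene with a filled diamond in each TNF-a panel.

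Akr1b8 (ENSRNOG00000009734) encodes an aldo-keto reductase that reduces reactive aldehydes to alcohols. It had 16497, 4948 and 5694 normalised reads in sets 1, 2 and 3 of shTon_TNF and 12210.1, 1396 and 2206 in shTon_CTR. The PLKO_TNF libraries had 50039.8, 19269 and 29309, and the PLKO_CTR libraries 35911, 2616 and 4155. Set 1 was highest in every group, and each shTon_TNF library lay below every PLKO_TNF library, as for 6.89% of all genes. The groups overlapped in the other comparisons made. Means were 9046 ± 6463 in shTon_TNF, 5271 ± 6023 in shTon_CTR, 32873 ± 15692 in PLKO_TNF and 14227 ± 18795 in PLKO_CTR (SD, n = 3).

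Knockdown with TNF-a lowered Akr1b8 by the log2 fold change of -1.97 (SE 0.23, limma adjusted p = 0.0314), with set ratios of -1.59, -1.96 and -2.37. Its estimate ranked 13 from the lowest of all genes tested, and the authors' deposited table lists -1.72 (adjusted p = 4.65e-15). The estimate was -1.71 with limma adjusted p = 0.0696 when the set 1 library labelled shTon_TNF alone was left out. That setting, here and below, was a fit of all 4 groups and not of the pair alone. Over the 12 settings run the adjusted p of Akr1b8 ranged from 1.71e-15 to 0.757, and 9 called it. Without TNF-a the fold change was -1.13 (SE 0.16, limma adjusted p = 0.0675), lower in 3 of 3 sets, and the authors' deposited table lists -1.01 (adjusted p = 5.84e-07). DESeq2 called it (adjusted p = 8.20e-07), as did limma without set 1 (0.0450) and without set 3 (0.00188), in a range of 8.20e-07 to 1.00 over 11 settings.

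TNF-a raised Akr1b8 in PLKO cells by a log2 fold change of 2.06 (SE 0.44, limma adjusted p = 0.0362). The set ratios were uneven, with 0.48 in set 1, whose PLKO_CTR level was already high, and 2.88 and 2.82 in sets 2 and 3. Without set 2 the estimate was 1.65 (limma adjusted p = 0.0537, in a range of 0.00127 to 0.806 over 11 settings). The authors' deposited table lists 0.80 (adjusted p = 0.0884), a shrunken value. In shTon cells the fold change was 1.21 (SE 0.25, limma adjusted p = 0.0513), with set ratios of 0.43, 1.82 and 1.37. There DESeq2 called it (adjusted p = 3.05e-05), as did limma without set 1 (1.26e-07), in a range of 1.26e-07 to 1.00 over 11 settings.

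Akr1b1, a close relative that encodes aldose reductase, the sorbitol-forming enzyme known as a TonEBP target, was read beside it. Reads of near-identical relatives may have been split or lost in counting, which the sources used here do not describe, so levels of Akr1b8 and Akr1b1 are uncertain. Akr1b1 averaged 5432 ± 1735 normalised reads in shTon_TNF, 3911 ± 1019 in shTon_CTR, 8621 ± 2761 in PLKO_TNF and 5105 ± 2804 in PLKO_CTR (SD, n = 3). Its log2 fold changes were 0.84 for TNF-a in PLKO cells (limma adjusted p = 0.0504) and -0.66 for knockdown with TNF-a (0.135). The first was called by DESeq2 (0.00127) and by limma with no filter on low values (0.0468), without set 1 (0.0136) and with all 12 libraries in the fit (0.0430), and the second by DESeq2 (0.0301). For knockdown without TNF-a the estimates for Akr1b1 ran from -0.47 to 0.0032 over 11 settings, of which 0 called it. Of 12 aldo-keto reductase genes, Akr1b1 included, 4 passed the filter on low values in PLKO cells, and with TNF-a 0 rose and 1 fell, Akr7a2 (-0.56, SE 0.13, limma adjusted p = 0.0452). Akr7a2 lost its call with a pseudocount of 0.1 (0.0539), without set 1 (0.107), without set 2 (0.175) and with all 12 libraries in the fit (0.160). Across the 12 libraries, after the mean of each set was subtracted, the genes whose log2 levels were most like those of Akr1b8 were Aup1 (Pearson r = 0.98), Cdca7 (0.98) and Fip1l1 (0.98), of 12310 genes ranked. These correlations share the 4 groups and their sets and are given without a test.

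**Figure D2:**
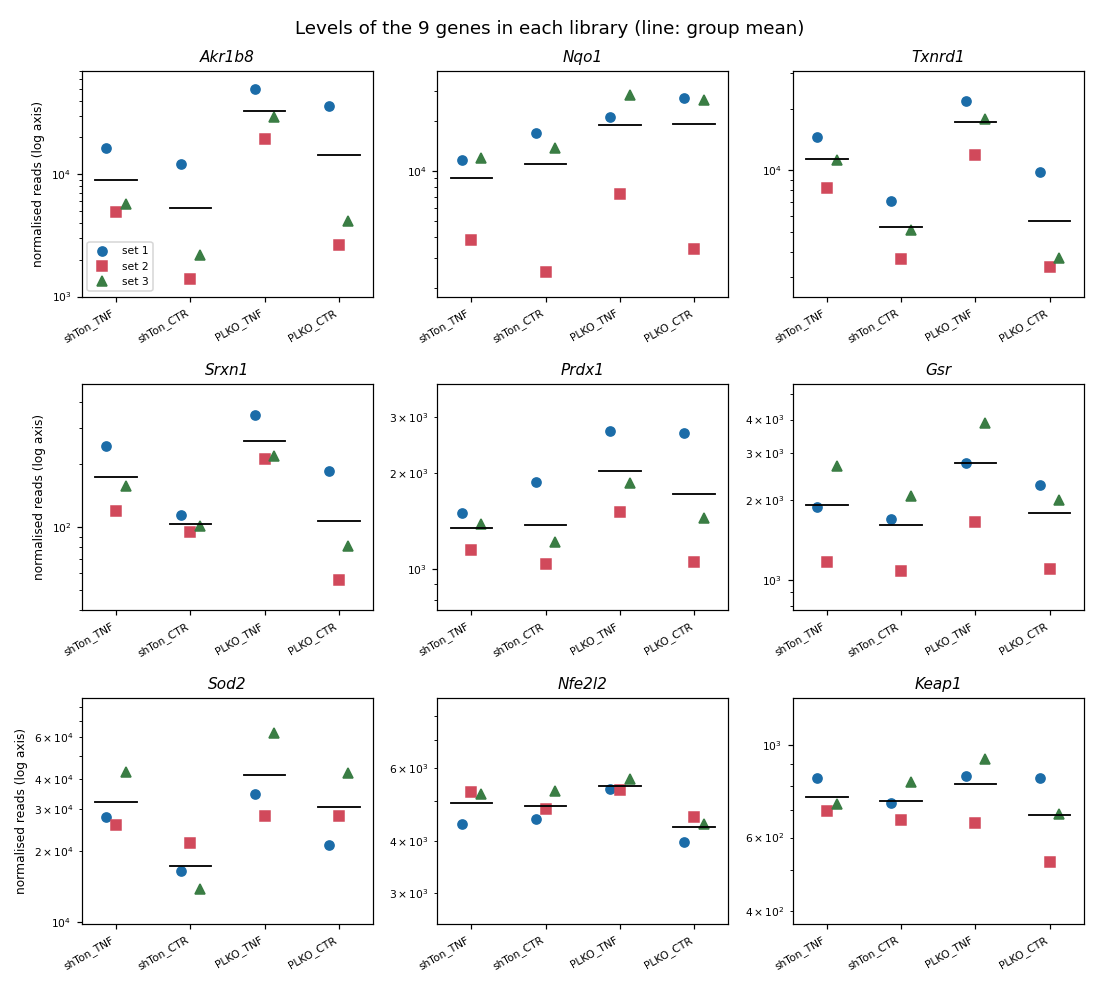
Normalised reads of the 9 genes in each of the 12 libraries (log axis), by group, with a symbol for each set and a line at the group mean. Akr1b8 in the 3 PLKO_TNF libraries lies between 19269 and 50039.8, above the 3 shTon_TNF libraries at 4948 to 16497, while Nfe2l2 stays between 3976 and 5635 in all 12.

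Of the 9 genes, 8 had an annotated start window in RefSeq, the 250 bases before and 50 after the start, on the GRCr8 build. This is not the rn5 build named for the counts. The windows of Akr1b8, Txnrd1, Srxn1 and Prdx1 are shown because Akr1b8 had the largest rise and fall of the 9 genes and the others act in 1 enzyme relay. They are written 5′ to 3′ along the gene, and capitals mark every match on either strand to the antioxidant response element core TGACNNNGC or its form TGAGNNNGC.
Akr1b8: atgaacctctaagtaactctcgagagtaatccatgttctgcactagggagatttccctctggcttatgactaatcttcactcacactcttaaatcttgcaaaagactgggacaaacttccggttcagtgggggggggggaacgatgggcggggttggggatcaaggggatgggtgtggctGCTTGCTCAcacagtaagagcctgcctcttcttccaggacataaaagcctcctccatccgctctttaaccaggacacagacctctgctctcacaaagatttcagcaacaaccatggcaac
Txnrd1: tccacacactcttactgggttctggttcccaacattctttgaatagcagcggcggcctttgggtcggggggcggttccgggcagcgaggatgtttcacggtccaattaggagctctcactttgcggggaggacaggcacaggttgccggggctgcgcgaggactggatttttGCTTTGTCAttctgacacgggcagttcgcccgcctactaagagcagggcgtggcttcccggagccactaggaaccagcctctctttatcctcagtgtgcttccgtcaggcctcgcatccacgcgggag
Srxn1: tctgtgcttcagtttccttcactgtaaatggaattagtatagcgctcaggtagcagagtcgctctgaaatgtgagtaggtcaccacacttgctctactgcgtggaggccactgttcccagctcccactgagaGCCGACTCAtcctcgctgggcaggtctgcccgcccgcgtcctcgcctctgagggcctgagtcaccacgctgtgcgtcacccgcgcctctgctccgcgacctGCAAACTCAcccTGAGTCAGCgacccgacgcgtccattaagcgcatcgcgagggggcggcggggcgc
Prdx1: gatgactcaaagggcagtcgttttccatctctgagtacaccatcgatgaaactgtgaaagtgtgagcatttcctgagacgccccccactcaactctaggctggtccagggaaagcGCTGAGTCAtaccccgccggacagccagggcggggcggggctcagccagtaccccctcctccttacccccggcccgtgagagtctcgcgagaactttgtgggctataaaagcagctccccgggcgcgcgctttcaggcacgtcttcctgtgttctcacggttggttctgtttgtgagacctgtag
They lie at chr4:63964171-63964470 (plus strand), chr7:22755855-22756154 (minus strand), chr3:161064562-161064861 (plus strand) and chr5:135383656-135383955 (plus strand). The Txnrd1 window is that of the second of 2 annotated starts, and the window of the other start had no match. Akr1b8 held 1 match, TGAGCAAGC on the opposite strand, whose span begins 70 bases before the start. Txnrd1 held TGACAAAGC on the opposite strand, 78 bases before the start. Srxn1 held 3 matches, at 118, 17 and 5 bases before the start, and Prdx1 held TGACTCAGC on the opposite strand, 135 bases before it. The Prdx1 match and the Srxn1 match nearest the start overlap the AP-1 letters TGANTCA, so the 2 motifs share bases there. Counting the windows of Nfe2l2 and Sod2 too, 6 of the 8 genes held either form, as did 27.1% of all 33469 windows in the table. The windows of Keap1 and Nqo1 held none of these letters. Searches for the NF-kB consensus and the tonicity-responsive element consensus found 0 matches in the 8 genes' windows, where 4.18% and 5.98% of all windows hold one. A match is a description of these letters and not a binding site.

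Of the genes of the peroxiredoxin relay, Txnrd1 and Srxn1 rose with TNF-a in PLKO cells. Txnrd1 (ENSRNOG00000009088) encodes the cytosolic thioredoxin reductase, which uses NADPH to recharge thioredoxin. It had 14479, 8208 and 11260.1 normalised reads in shTon_TNF and 7054, 3694 and 5092 in shTon_CTR. Levels in PLKO_TNF were 21854, 11854 and 17756, and in PLKO_CTR 9794, 3377 and 3728. Every TNF-a library lay above every untreated library of the same vector, which 5.95% of all genes showed in PLKO cells and 5.5% in shTon cells. Txnrd1 rose with TNF-a by 1.74 on the log2 scale in PLKO cells (SE 0.20, limma adjusted p = 0.00767) and by 1.11 in shTon cells (SE 0.13, limma adjusted p = 0.00815). The authors' deposited table lists 1.57 for PLKO cells (adjusted p = 2.45e-15). Its adjusted p ranged from 2.04e-15 to 0.575 over 11 settings in PLKO cells, where 9 called it. In shTon cells 10 of 11 settings called it. Knockdown gave 0.03 without TNF-a (95% interval -0.40 to 0.47) and -0.59 with TNF-a (-1.04 to -0.14, limma adjusted p = 0.199).

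Srxn1 (ENSRNOG00000031167) encodes sulfiredoxin, which repairs over-oxidised peroxiredoxins. It had 245, 119.8 and 157 normalised reads in shTon_TNF and 114, 94.8 and 102 in shTon_CTR. In PLKO_TNF it had 346, 211 and 219, and in PLKO_CTR 185, 55.9 and 81.1. Here too the TNF-a libraries lay above the untreated ones of the same vector. Srxn1 rose with TNF-a in PLKO cells (log2 fold change 1.41, SE 0.21, limma adjusted p = 0.0148), and 1.18 stands in the authors' deposited table (adjusted p = 9.51e-06). In shTon cells it had 0.69 (SE 0.20, limma adjusted p = 0.128). Knockdown gave 0.12 without TNF-a (95% interval -0.55 to 0.79) and -0.59 with TNF-a (-1.04 to -0.14, limma adjusted p = 0.197).

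Prdx1 (ENSRNOG00000017194) encodes peroxiredoxin 1, which removes hydrogen peroxide and is itself recharged by thioredoxin. It had 1500.2, 1148 and 1382 normalised reads in shTon_TNF and 1873, 1041 and 1217 in shTon_CTR. The PLKO_TNF libraries had 2715, 1514 and 1868, and the PLKO_CTR libraries 2666, 1057 and 1446. Each shTon_TNF library lay below every PLKO_TNF library, as for 6.89% of all genes. Knockdown with TNF-a gave -0.56 (SE 0.16, limma adjusted p = 0.170), and TNF-a gave 0.30 in PLKO cells (SE 0.12, 0.149) and 0.00 in shTon cells (95% interval -0.34 to 0.34). Of 17 other thioredoxin, glutaredoxin, peroxiredoxin and sestrin genes 16 were tested, and for TNF-a in PLKO cells 1 rose and 3 fell. Of all 12373 genes tested, 615 rose and 575 fell. Prdx6, a peroxiredoxin with phospholipase activity, rose (0.64, SE 0.13, limma adjusted p = 0.0329). Txnip, the inhibitor of thioredoxin, fell (-1.19, SE 0.27, limma adjusted p = 0.0405), as did the sestrin genes Sesn3 (-1.19, SE 0.19, 0.0171) and Sesn1 (-0.61, SE 0.14, 0.0431). Txnip lost its call with a pseudocount of 0.1 (0.0510) and Sesn3 lay at the threshold with all 12 libraries in the fit (0.050). Prdx6 lost its call without set 2 (0.0728) or set 3 (0.0863), and Sesn1 in DESeq2 (0.0653) and without any 1 set (0.0603, 0.177 and 0.108). Txnip also fell with TNF-a in shTon cells (-0.77, SE 0.16, limma adjusted p = 0.0495), a call lost with a pseudocount of 0.1 (0.0606), in edgeR (0.0530), without set 3 (0.0810) and without the set 1 library labelled shTon_TNF (0.143). The median of these 16 genes was 0.07 in PLKO cells.

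Gsr (ENSRNOG00000014915) encodes glutathione reductase, which returns oxidised glutathione to its reduced form. It had 1873, 1174 and 2679.9 normalised reads in shTon_TNF and 1692, 1079 and 2072 in shTon_CTR. Levels in PLKO_TNF were 2741, 1645 and 3873, and in PLKO_CTR 2277, 1099 and 2002. It was higher with TNF-a in 3 of 3 sets of PLKO cells and rose by 0.60 on the log2 scale (SE 0.14, limma adjusted p = 0.0443). That call was lost with a pseudocount of 0.1 (0.0533), without set 2 (0.0938) and without set 3 (0.115), and the authors' deposited table lists 0.56 (adjusted p = 0.00899). In shTon cells the value was 0.21 (95% interval -0.08 to 0.50). Knockdown with TNF-a gave close ratios of -0.54, -0.48 and -0.54 in the 3 sets, with an estimate of -0.52 (SE 0.15, limma adjusted p = 0.165), and knockdown without TNF-a gave -0.14 (95% interval -0.46 to 0.18).

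Nqo1 (ENSRNOG00000012772) encodes a quinone reductase that is a standard readout of NRF2 activity. It had 11557, 3834 and 11866 normalised reads in shTon_TNF and 16727, 2469.5 and 13639 in shTon_CTR. In PLKO_TNF it had 21129, 7309.6 and 28357, and in PLKO_CTR 27397, 3425 and 26520.2. Set 2 was the lowest in every group, and knockdown libraries lay below their partners in 3 of 3 sets with and without TNF-a. Knockdown gave -1.02 with TNF-a (SE 0.20, limma adjusted p = 0.0802) and -0.72 without TNF-a (SE 0.15, 0.101), and neither passed. In the authors' deposited tables the values are -0.91 (0.000148) and -0.66 (0.00159), and DESeq2 called both (0.000112 and 0.00161). Limma called the first without set 1 (0.0362), in a range of 0.000112 to 0.831 over 12 settings. TNF-a gave 0.27 in PLKO cells (95% interval -0.36 to 0.90), with set ratios of -0.38, 1.09 and 0.10, and -0.03 in shTon cells (-0.56 to 0.50). The genes most like Nqo1 across the 12 libraries, set means subtracted, were Dtnbp1 (r = 0.96), Pspc1 (0.95) and RGD1561796 (0.95).

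Sod2 (ENSRNOG00000019048) encodes the mitochondrial superoxide dismutase, which turns superoxide into hydrogen peroxide and is also a known NF-kB target. It had 27754, 25564 and 42907 normalised reads in shTon_TNF and 16519, 21569.7 and 13831 in shTon_CTR. The PLKO_TNF libraries had 34455, 28095 and 62573.9, and the PLKO_CTR libraries 21066, 27951.5 and 42227. The shTon_TNF libraries lay above those of shTon_CTR without overlap, as for 5.5% of all genes, and set 3 of shTon_CTR was the lowest of all. TNF-a gave 0.88 in shTon cells (SE 0.26, limma adjusted p = 0.136, in a range of 0.00704 to 0.893 over 11 settings) and 0.43 in PLKO cells (SE 0.20, 0.206). In shTon cells DESeq2 called it (0.00704), as did limma without set 1 (0.0216) and without set 2 (0.0308). Knockdown gave -0.78 without TNF-a (SE 0.27, 0.212), with set ratios of -0.36, -0.38 and -1.61, and the authors' deposited table lists -0.64 (adjusted p = 0.0355). With TNF-a it gave -0.33 (95% interval -0.90 to 0.25). Of 10 other NF-kB targets, 10 rose with TNF-a in PLKO cells and 10 in shTon cells. Without the mean-variance trend 6 were called in each, and without the set term 0 in PLKO cells and 2 in shTon cells. Tnfaip3, a feedback inhibitor, had 2.78 and 2.72 (limma adjusted p = 0.000213 and 0.000437). For knockdown, 0 of these 10 passed without TNF-a (median 0.07) and 0 with it (median -0.06). The genes most like Sod2 were Camp (r = 0.96), Ces1a (0.96) and Rnase10 (0.95).

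Nfe2l2 (ENSRNOG00000001548), the gene of NRF2 itself, varied little. It had 4409.9, 5251 and 5193 normalised reads in shTon_TNF and 4517, 4776 and 5273 in shTon_CTR. Levels in PLKO_TNF were 5349, 5303 and 5635, and in PLKO_CTR 3976, 4565 and 4401. Its PLKO_TNF libraries lay above those of PLKO_CTR without overlap, as for 5.95% of all genes. They also lay above those of shTon_TNF, as for 6.89% of all genes, but narrowly, with 5303 as the lowest against 5251 as the highest. Fold changes were 0.33 for TNF-a in PLKO cells (SE 0.10, limma adjusted p = 0.0904) and 0.03 in shTon cells (95% interval -0.27 to 0.32). Knockdown gave 0.17 without TNF-a (-0.12 to 0.45) and -0.13 with it (-0.52 to 0.25). The genes most like it were Rbbp5 (r = 0.91), Cwc25 (0.91) and Tars (0.90).

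Keap1 (ENSRNOG00000020878), the inhibitor, had 834, 696 and 724 normalised reads in shTon_TNF and 725, 661 and 817 in shTon_CTR. In PLKO_TNF it had 845, 649 and 927, and in PLKO_CTR 834, 523 and 682. All groups overlapped. Its fold changes were 0.26 for TNF-a in PLKO cells (95% interval -0.02 to 0.53), 0.03 in shTon cells (-0.28 to 0.35), 0.13 for knockdown without TNF-a (-0.21 to 0.47) and -0.09 with it (-0.47 to 0.30). Of 12 other NRF2 regulators, 3 rose with TNF-a in PLKO cells, as did 4.97% of all genes, and 0 fell (median 0.16). These were the small MAF partner genes Maff (1.18, SE 0.19, limma adjusted p = 0.0172) and Mafg (0.87, SE 0.14, 0.0167) and the repressor gene Bach1 (0.59, SE 0.10, 0.0226). Bach1 lost its call without set 2 (0.0503), without set 3 (0.0528) and with all 12 libraries in the fit (0.112). In shTon cells 1 rose, Maff (1.17, SE 0.15, limma adjusted p = 0.0110), and knockdown called 0 of the 12 with or without TNF-a.

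Of 22 other NRF2 targets tested (26 listed), 7 rose with TNF-a in PLKO cells, as did 4.97% of all genes. Of the 22, 0 fell and the others did not pass, with a median of 0.33 against -0.01 for all genes. By value 3 were lower, Ephx1 (-0.67), Ftl1 (-0.18) and Esd (-0.04). Without the mean-variance trend, and likewise without the set term, 0 of the 22 were called in this or the other comparisons below. Slc7a11, the cystine importer gene, had 2.15 (SE 0.33, limma adjusted p = 0.0157). The heme oxygenase gene Hmox1 had 1.67 (SE 0.26, 0.0171), Osgin1 1.26 (SE 0.23, 0.0246) and Gclm, the modifier subunit of glutamate-cysteine ligase, 1.02 (SE 0.17, 0.0177). Hmox1 averaged 1560.2 ± 959 normalised reads in shTon_TNF, 1159 ± 327 in shTon_CTR, 5204 ± 1319 in PLKO_TNF and 1717 ± 817 in PLKO_CTR (SD, n = 3). In shTon cells 2 of 22 rose with TNF-a, as did 1.95% of all genes, and 0 fell (median 0.18). The 2 were Ugdh, a UDP-glucose dehydrogenase (1.08, SE 0.14, limma adjusted p = 0.0121), and Slc7a11 (1.05, SE 0.13, 0.00990). Slc7a11 lost that call in the fit of all 4 groups without the set 1 library labelled shTon_TNF (0.120). In fits of the shTon pair without any 1 set it kept the call (limma adjusted p = 0.000742 to 0.0178).

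Under knockdown with TNF-a 2 of the 22 other targets fell, as did 0.139% of all genes, and 0 rose. By value 20 were lower, with a median of -0.42 against 0.02 for all genes. Slc7a11 had -1.58 (SE 0.21, limma adjusted p = 0.0389). Ftl1, which encodes a ferritin chain and has near-identical copies that make its level uncertain, had -1.23 (SE 0.16, 0.0389). Slc7a11 did not pass in edgeR (0.0608) or without set 3 (0.0595), and with a pseudocount of 0.1 neither gene passed (0.0599 for each). Hmox1 had -1.87 (SE 0.33, limma adjusted p = 0.0775), and was called by DESeq2 (6.93e-07), by limma on all 12 libraries (0.0176), without set 1 (6.66e-05), without set 2 (0.00463) and without the set 1 library labelled shTon_TNF (0.0254). DESeq2 passed 7 of 23 as lower, among 200 of 13176 genes. Limma without set 1 passed 5 of 22 as lower, among 304 of 12092 genes, and 1 as higher. Without TNF-a 1 of 22 fell, where 0.113% of all genes passed in either direction, and the median was -0.15. The gene that fell was Ftl1 (-1.21, SE 0.11, limma adjusted p = 0.0394). That call was lost with a pseudocount of 0.1 (0.0569), without set 2 (0.0834), without the mean-variance trend (0.193) and without the set term (1.00). Beside the knockdown values with TNF-a, 4 fibroblast and annulus markers summed to 18571.5 to 74421 normalised reads in shTon_TNF (median 55989) and to 18312 to 28399 in PLKO_TNF (median 23977), and Col3a1 among them had 1.53 (limma adjusted p = 0.0389). By value 3 of the 4 were higher and 1, Pdgfra, was lower. Pdgfra averaged 3752.6 ± 763 normalised reads in shTon_TNF and 8149.5 ± 8300.5 in PLKO_TNF (SD, n = 3). The leukocyte genes Cd14 and Cd68 went opposite ways. Cd14 had 231.5, 658 and 419 normalised reads in shTon_TNF and 144, 246.5 and 127 in PLKO_TNF, and Cd68 had 68.3, 19.6 and 10.6 in shTon_TNF and 149, 27.7 and 59.6 in PLKO_TNF. Neither passed (limma adjusted p = 0.0775 and 0.178). The part of such cells in the lower values of the NRF2 genes was not tested.

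**Figure D3:**
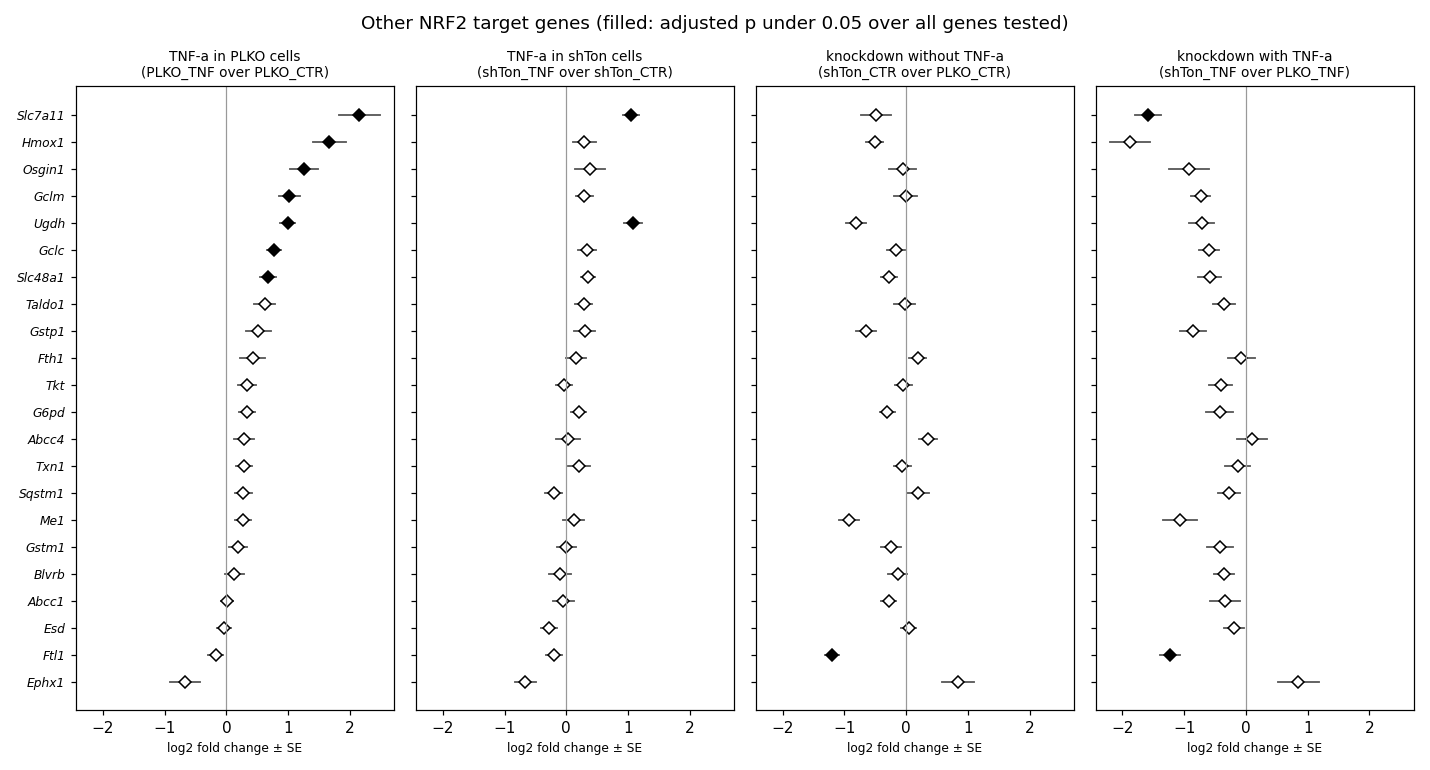
Log2 fold changes of 22 other NRF2 target genes in 4 comparisons, with SE bars, ordered by the value for TNF-a in PLKO cells and filled where the adjusted p was under 0.05. For TNF-a 7 symbols are filled in PLKO cells and 2 in shTon cells, and for knockdown 1 without TNF-a and 2 with it.

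Of 10 other superoxide, catalase and glutathione peroxidase genes tested (12 listed), with TNF-a in PLKO cells 1 rose and 1 fell, with a median of -0.28. Of all 12373 genes tested, 615 rose and 575 fell. Gss, glutathione synthetase, rose (0.78, SE 0.17, limma adjusted p = 0.0368, but 0.0812 without set 2), and Gpx1, a glutathione peroxidase, fell (-0.75, SE 0.10, 0.0112). In shTon cells Gss rose as well (0.69, SE 0.12, limma adjusted p = 0.0341), a call lost without set 2 (0.180), set 3 (0.0617) or the set 1 library labelled shTon_TNF (0.0627), and 0 fell. Knockdown called 0 of the 10 with or without TNF-a.

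Whether TNF-a acted differently in shTon and PLKO cells was tested as an interaction over all 12 libraries. It called 0 of 12310 genes in limma (0% of those tested, with 219 at an unadjusted p under 0.05), 0 in edgeR (259) and 0 in DESeq2 (275). Among the 9 genes the difference of the TNF-a effects, shTon minus PLKO, was -0.85 for Akr1b8 (95% interval -2.12 to 0.42), -0.63 for Txnrd1 (-1.24 to -0.02) and -0.72 for Srxn1 (-1.46 to 0.02). Sod2 was the member with a positive value (0.45, -0.47 to 1.37), and each of the 9 had limma adjusted p = 0.999. Txnrd1 had an unadjusted p of 0.0442. The calls in PLKO cells that were absent in shTon cells (Akr1b8, Srxn1 and Gsr) are therefore not shown to differ between the vectors.

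Most of the 9 genes differed among the sets. Limma passed 7 of the 9 in a test of the sets, and 45.4% of 12310 genes. The mean level of Nqo1 over the 4 libraries of a set, 1 per group, was 19202 ± 6720 (SD) for set 1, 4259.5 ± 2112 for set 2 and 20095 ± 8543 for set 3, with limma adjusted p = 4.83e-05. Akr1b8 averaged 28664 ± 17590.0, 7057 ± 8274 and 10341 ± 12726 in the same order (limma adjusted p = 0.000537). Gsr was lowest in set 2, with 1249 ± 267 normalised reads, against 2146 ± 466 in set 1 and 2657 ± 866 in set 3 (limma adjusted p = 0.000166). Nfe2l2 (limma adjusted p = 0.302) and Sod2 (0.173) did not pass, though Sod2 did without shTon_CTR (0.0276). Keap1 passed narrowly (limma adjusted p = 0.0488) and did not pass without the mean-variance trend (0.0771) or without PLKO_CTR (0.197), PLKO_TNF (0.188) or shTon_CTR (0.0998). The summed level of the muscle markers above was highest in set 1 and lowest in set 3, while Nqo1 was lowest in set 2. Des among these markers averaged 243.5, 41.5 and 143 normalised reads in sets 1, 2 and 3, so it too was lowest in set 2. The part of muscle cells in the differences among sets was not tested.

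With set means subtracted, Txnrd1 and Srxn1 had the highest correlation of the 36 pairs of members across the 12 libraries (r = 0.95), followed by Akr1b8 and Gsr (0.93). Nfe2l2 and Nqo1 had the lowest (0.06). All pairs share the same libraries and groups, and the values are a description without a test.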

How the data were processed

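RNA-seq of rat NP cells was deposited as 3 tables of 2 groups each. Novoalign 2.08.01, DESeq2 and the rn5 build appear in the submitters' processing notes. No source used here gives the counter, annotation or strandedness, so overlapping and antisense genes cannot be told apart. The deposited unit is a normalised signal (reads divided by 1 factor per library), per the file headers and values. The log2 fold changes with their adjusted p-values in these tables were computed by the authors. A DESeq2 refit that included the set and a prior that shrinks fold changes differed from them by a median of 0.000452, 0.000416 and 0.000607 log2 units. The limma values and the DESeq2 alternative used no such prior.

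All values (100%) were whole reads within 0.001 read, shared libraries had equal reads, and DESeq2 size factors put the 12 libraries on 1 scale. Libraries of a group differed by a chi-square of 73.3 to 167 per degree of freedom, so none was a copy.

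Limma 3.58.1 (R 4.3.3) used log2(value + 1), which understates changes of low genes, a mean of 10 normalised reads or more, the mean-variance trend, the set as a block and Benjamini-Hochberg adjustment over all genes (threshold 0.05). The deposited pairs were fitted on deposited values and the rest on the joined scale. The setting without the set 1 library labelled shTon_TNF used all the other libraries on the joined scale, so it differs from the pair fits in the model too. The set numbers pair the libraries: across groups, same-numbered libraries had correlated deviations (r = 0.609 to 0.889, 18 pairs), other pairs -0.741 to 0.180 (36 pairs). EdgeR 4.0.16 and DESeq2 1.42.0 on recovered reads were alternatives, and the fits were tested on simulated data.

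Genes, lists and settings were chosen with earlier results of these data known. Named are the 9 genes, up to 4 list genes per direction past the threshold, the 3 nearest patterns of 4 members and Nfat5. Akr1b1, Hmox1 under knockdown, Tnfaip3 and the single marker genes were named after their values were seen. Promoter windows are from RefSeq (GRCr8).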

Additional observations from a re-analysis of the deposited data

Results flagged for a closer look

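Nfe2l2 lay on opposite sides of its partners in the 2 knockdown comparisons. In all 3 sets the knockdown library was below its partner with TNF-a (-0.27, -0.01 and -0.12 on the log2 scale) and above it without TNF-a (0.18, 0.06 and 0.26). The interaction of TNF-a and knockdown, which tests that difference, was -0.31 (SE 0.16, limma adjusted p = 0.999, unadjusted p = 0.0751) and did not pass.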

How the results depend on the processing

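The number of genes called depended on the set as a block. With no replicate block limma called 0 genes for TNF-a in PLKO cells, 0 and 0 for knockdown without and with TNF-a and 6 for TNF-a in shTon cells, where the blocked fits called 1190, 14, 31 and 405, and none of the 9 members was called (793, 504, 770 and 632 genes were at an unadjusted p under 0.05). Without the mean-variance trend the counts were 55, 0, 0 and 143 (3198, 1907, 1879 and 2156 unadjusted), and Txnrd1 in shTon cells was the member still called. Under either setting no gene of the NRF2 target, NRF2 regulator, thioredoxin, superoxide or aldo-keto reductase lists was called for TNF-a or knockdown. A pseudocount of 0.1 gave 2 and 12 for knockdown without and with TNF-a, DESeq2 gave 403, 360 and, for TNF-a in shTon cells, 623, and all 12 libraries in the fit gave 696, 3 and 444 for the 3 deposited pairs. Leaving out 1 set, or the set 1 library labelled shTon_TNF where that was run, gave 545 to 1410, 12 to 283, 32 to 488 and 299 to 1105, and 0 for the interaction. Leaving out 1 group gave 3536 to 5473 genes that differ among sets, where all groups gave 5594.

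Over the fits with 1 set left out, or 1 library, Nqo1 ranged from -0.14 to 0.60 for TNF-a in PLKO cells and from -0.37 to 0.22 in shTon cells. For knockdown without TNF-a Txnrd1 ranged from -0.18 to 0.29, Srxn1 from -0.19 to 0.53, Gsr from -0.23 to 0.0087 and Akr1b1 from -0.47 to 0.0032. Keap1 ranged from -0.18 to 0.049 for knockdown with TNF-a and from -0.050 to 0.14 for TNF-a in shTon cells, where Nfe2l2 ranged from -0.028 to 0.068 and Prdx1 from -0.090 to 0.20, with -0.0025 in DESeq2. Nfat5 ranged from -1.15 to 0.18 for knockdown with TNF-a and from -0.32 to 1.01 for TNF-a in shTon cells. The cause was not tested.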
